A study of Mus musculus with 6 samples.

Results

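The nuclear receptors are a superfamily of transcription factors, many of which are switched on by small lipophilic ligands, and 37 of their genes were examined here as sites of farnesoid X receptor (FXR) binding in mouse liver. FXR is itself a nuclear receptor, activated by bile acids. The 37 were chosen by name as superfamily members other than those of the FXR-SHP loop, PPAR-alpha, HNF4-alpha and the REV-ERBs, and their peaks were those whose nearest annotated gene, as named by the authors, was 1 of the 37. Of 32535 FXR peaks in both peak lists together, 199 belonged to these genes: 118 of 20040 in WT liver and 81 of 12495 in LKO liver.

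FXR chromatin immunoprecipitation and sequencing (ChIP-seq) was performed on male C57BL/6 liver of 2 genotypes. WT mice were Bcl6 fl/fl, with loxP sites in both copies of Bcl6. LKO (Bcl6LKO) mice were Bcl6 fl/fl and also carried Alb-cre, which is driven by the albumin promoter. It is meant to remove BCL6, a transcriptional repressor, from hepatocytes. Each genotype had 2 ChIP libraries and 1 input library, and the ages of the animals were not given in the sources used here. The ChIP libraries held 2883717 tags in WT replicate 2 against 19022618 to 22637613 in the other 3, and the inputs held 6964271 and 6935001. Peaks were called on the pooled replicates of a genotype, so a peak list has no replicate of its own. The peak tables hold no measure of BCL6, so its loss was not checked here.

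Nuclear receptors bind DNA mostly as dimers, at pairs of a short half-site. FXR, as a dimer with an RXR, prefers an inverted repeat of AGGTCA with a 1-base spacer, called IR1. In liver the superfamily divides the sensing of nutrients and hormones: PXR and CAR respond to foreign compounds, the LXRs to oxysterols, the retinoid and thyroid hormone receptors to their ligands, and the glucocorticoid receptor to stress hormones, and receptors without a known ligand, such as the COUP-TFs, set the tone of many of the same sites.

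FXR peaks were found at 27 of the 37 genes in the WT list (73.0%) and at 24 in the LKO list (64.9%), and the same 24 genes had peaks in both. Over all protein-coding RefSeq genes, 34.5% had a WT peak and 26.3% an LKO peak. At 22 of the genes at least 1 WT peak was overlapped by an LKO peak, by 1 base or more. The 3 genes with WT peaks alone were Nr1i3, Rarb and Thra, and no gene had LKO peaks alone. Neither list held a peak for the other 10: Nr1h2 (LXR-beta), Vdr, Rorb, Rxrb, Rxrg, Hnf4g, Nr2e3, Nr4a3, Nr5a1 and Nr0b1. For the 12 remaining nuclear receptor genes, which include FXR itself (Nr1h4), SHP (Nr0b2), Rxra and Ppara, 9 had peaks in each list, with 54 WT and 28 LKO peaks.

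**Figure D1:**
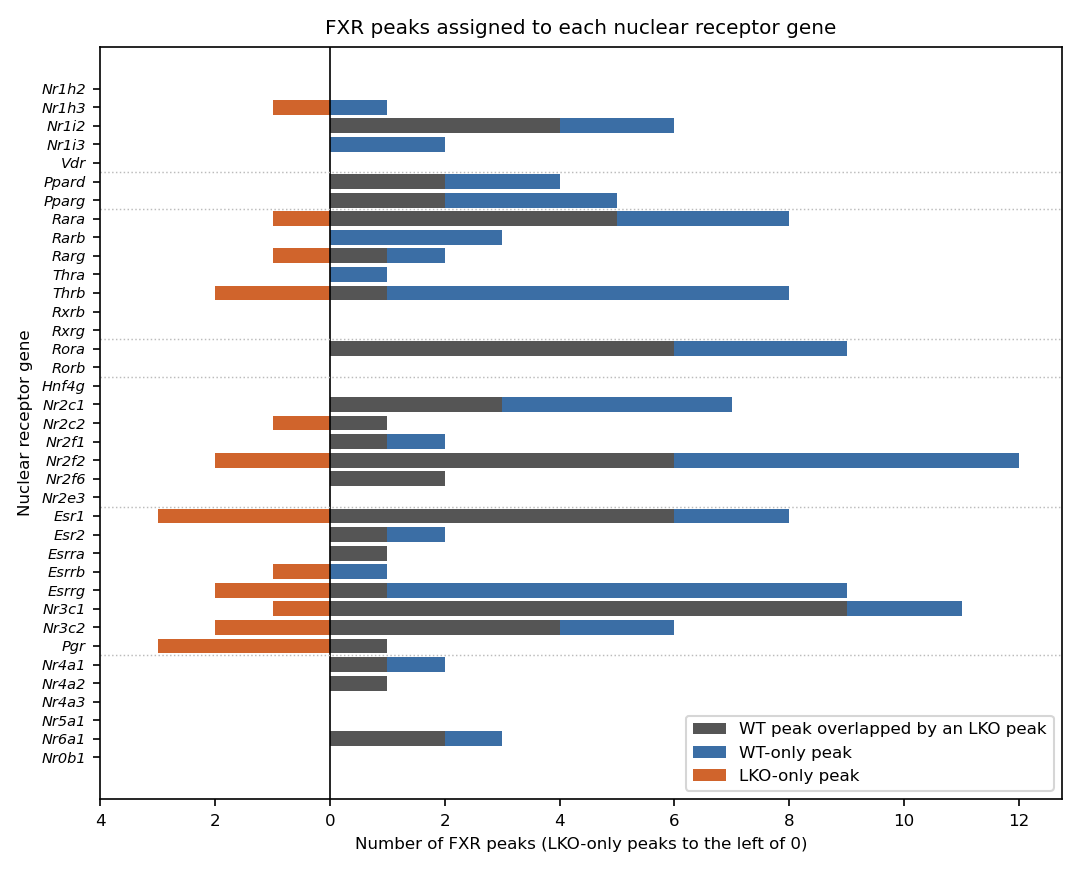
Number of FXR peaks (x axis) assigned to each of the 37 nuclear receptor genes (y axis, grouped by role between dotted lines); grey, WT peaks overlapped by an LKO peak; blue, WT-only; orange and to the left, LKO-only. Nr2f2 had the most WT peaks, 12, and Nr3c1 the most overlapped ones, 9, while 10 genes had none.

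Peaks were spread unevenly over the genes. The 7 genes with 8 or more WT peaks were Nr2f2, Nr3c1, Rora, Esrrg, Rara, Thrb and Esr1, and together they held 65 of the 118. Among genes with a peak, the median was 3.0 WT peaks and 2.0 LKO peaks, against a median of 1.0 for all genes named in either list. Longer genes tended to hold more: Spearman's rho of gene length with the number of peaks was 0.44 in WT and 0.41 in LKO over the 37 genes, and the median gene length was 56.8 kb with a peak and 31.6 kb without. More peaks in WT than in LKO were counted at 17 genes, fewer at 3 (Esr1, Nr2c2 and Pgr) and equal numbers at 7. The whole WT list was also the longer, with 20040 peaks against 12495, and the same count over all genes was not made.

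Of the 118 WT peaks, 61 were overlapped by an LKO peak (51.7%, Wilson 95% interval 42.8 to 60.5), close to the 49.5% of all WT peaks. Of the 81 LKO peaks, the same 61 were overlapped (75.3%, 64.9 to 83.4), against 79.4% of all LKO peaks. That left 57 WT-only and 20 LKO-only peaks. When the WT list was cut to the length of the LKO list by strength, the overlapped share of WT peaks was 68.8% at these genes and 68.3% overall. Some of the unshared peaks lay near one of the other list: 5 of the 57 WT-only peaks (8.77%, against 6.07% of all WT-only peaks) and 4 of the 20 LKO-only peaks (against 11.9% of all LKO-only peaks) had their centre within 1 kb of a centre in the other genotype.

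Introns held most of the peaks, 67 WT peaks (56.8%, 47.8 to 65.4) and 47 LKO peaks (58.0%, 47.2 to 68.2), against 46.5% and 47.4% of all peaks in the lists. Promoters held 18 WT peaks (15.3%, 9.87 to 22.8) and 9 LKO peaks (11.1%, 5.96 to 19.8), against 11.4% and 11.3%. More than 100 kb from the nearest transcription start site (TSS) lay 30 WT peaks (25.4%, against 9.71% of all) and 22 LKO peaks (27.2%, against 9.58%). These came from few genes: in WT all belonged to Thrb, Rora, Nr2f2, Esrrg, Nr3c1, Nr3c2 and Pgr, and in LKO to the same genes and Esrrb. The assignment to a gene is by the nearest TSS: 12 WT and 7 LKO peaks lay in a transcript of a different gene, among them the Nr2c1 peaks inside Fgd6, the distal Nr3c1 peaks inside Arhgap26 and the Pgr peak inside Arhgap42.

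An IR1 with up to 2 of its 12 scored bases mismatched (pattern AGGTCANTGACCT, which reads the same on both strands), centred within 100 bp of the peak centre, was found in 20 of the 118 WT peaks (16.9%, 11.2 to 24.7) and in 16 of the 81 LKO peaks (19.8%, 12.5 to 29.7). Over all peaks the share was 11.9% in WT and 16.3% in LKO, and in windows 2 kb from each peak it was 0.973% and 0.896%. Of the peaks with an IR1, 12 were shared between the lists. At most 1 mismatch was found in 3 WT and 2 LKO peaks, belonging to Esrrg, Nr2f2 and Rarg. The peaks below are shown because they were those 3, and the peaks with a 2-mismatch IR1 among the 6 strongest pairs and the 3 strongest unshared peaks of each list: the strongest Nr2f2 pair, the WT-only Nr1i2 intron peak and the LKO-only Esr1 intron peak. They lie on mm10 at chr1:187964551-187964761, chr7:70549290-70549500, chr15:102257668-102257878, chr7:70524849-70525059, chr16:38255973-38256183 and chr10:4694332-4694536, in the order printed, and are read 5′ to 3′ on the plus strand of GRCm38.p6, with the IR1 match in capitals.
Esrrg intron, WT list: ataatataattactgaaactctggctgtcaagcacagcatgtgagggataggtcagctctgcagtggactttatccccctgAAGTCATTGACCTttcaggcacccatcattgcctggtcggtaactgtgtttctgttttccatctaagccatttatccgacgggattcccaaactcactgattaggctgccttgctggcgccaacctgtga
Nr2f2 upstream, WT list: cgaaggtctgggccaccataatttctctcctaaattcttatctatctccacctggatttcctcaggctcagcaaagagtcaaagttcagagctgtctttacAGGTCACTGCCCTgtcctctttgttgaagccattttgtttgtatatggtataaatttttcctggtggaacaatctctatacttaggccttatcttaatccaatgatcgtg
Rarg upstream, WT-only: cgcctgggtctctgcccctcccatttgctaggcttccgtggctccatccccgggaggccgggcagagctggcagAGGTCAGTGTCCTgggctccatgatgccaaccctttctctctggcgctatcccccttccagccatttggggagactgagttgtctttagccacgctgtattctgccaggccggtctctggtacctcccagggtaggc
Nr2f2 upstream, strongest pair, WT list: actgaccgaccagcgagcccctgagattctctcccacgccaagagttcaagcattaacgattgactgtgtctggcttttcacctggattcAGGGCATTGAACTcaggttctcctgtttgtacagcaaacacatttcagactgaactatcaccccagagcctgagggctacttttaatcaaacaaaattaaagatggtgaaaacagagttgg
Nr1i2 intron, WT-only: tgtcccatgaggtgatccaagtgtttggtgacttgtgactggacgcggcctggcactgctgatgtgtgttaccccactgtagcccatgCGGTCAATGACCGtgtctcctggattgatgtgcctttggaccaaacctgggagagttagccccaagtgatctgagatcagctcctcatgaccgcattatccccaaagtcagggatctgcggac
Esr1 intron, LKO-only: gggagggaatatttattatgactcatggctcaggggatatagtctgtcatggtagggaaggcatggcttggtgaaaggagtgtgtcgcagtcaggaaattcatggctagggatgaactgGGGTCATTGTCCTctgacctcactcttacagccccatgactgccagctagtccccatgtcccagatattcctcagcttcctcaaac

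A 2-mismatch IR1 was also present in the WT-only peak over the start of Nr1i3, with the 13-base match AGGTCTTTGCCCT. The single half-site AGGTCA, searched without mismatches on both strands, was present in 54 WT peaks (45.8%, against 40.5% of all) and 33 LKO peaks (40.7%, against 41.6%), and a match to it can lie within an IR1. A direct repeat with a 1-base spacer (DR1), the form bound by HNF4 and by PPARs, was found in 18 WT and 11 LKO peaks (15.3% and 13.6%, against 13.2% and 12.2% of all). The BCL6 core TTCCTAGAA, with at most 1 mismatch on either strand, was found in 7 WT and 2 LKO peaks (5.93% and 2.47%, against 6.06% and 5.72%). In the windows 2 kb away it was found for 11 WT and 11 LKO peaks (9.32% and 13.6%, against 7.50% and 7.40% of all). All of these counts at the member genes are small. These matches describe the sequence only.

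FXR levels at shared peaks were read as the log2 tag value minus the median of all 9918 shared peaks in the same library, here called the relative level. A relative level of 0 is thus a typical shared peak, and 3 is 8-fold above it on the scale of the deposited values. These values are taken to be regularized, so such a fold need not equal a ratio of tags. The 2 genotypes' tables were normalized separately, and 2 libraries against 2 cannot give an exact two-sided p below 0.333, so differences between genotypes are described and not tested. Every direction given below is relative to the median shared peak. Before centering, the median difference (LKO minus WT) over all shared peaks was -0.30 on the deposited values. It was -1.12 when each table was divided by its mean library total (the library-total scale). Whether replicates came from separate animals is not stated in the labels. The shallow WT replicate 2 limits precision: 58 of the 118 WT peaks held fewer than 10 estimated tags there, and none did in the other 3 ChIP libraries.

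**Figure D2:**
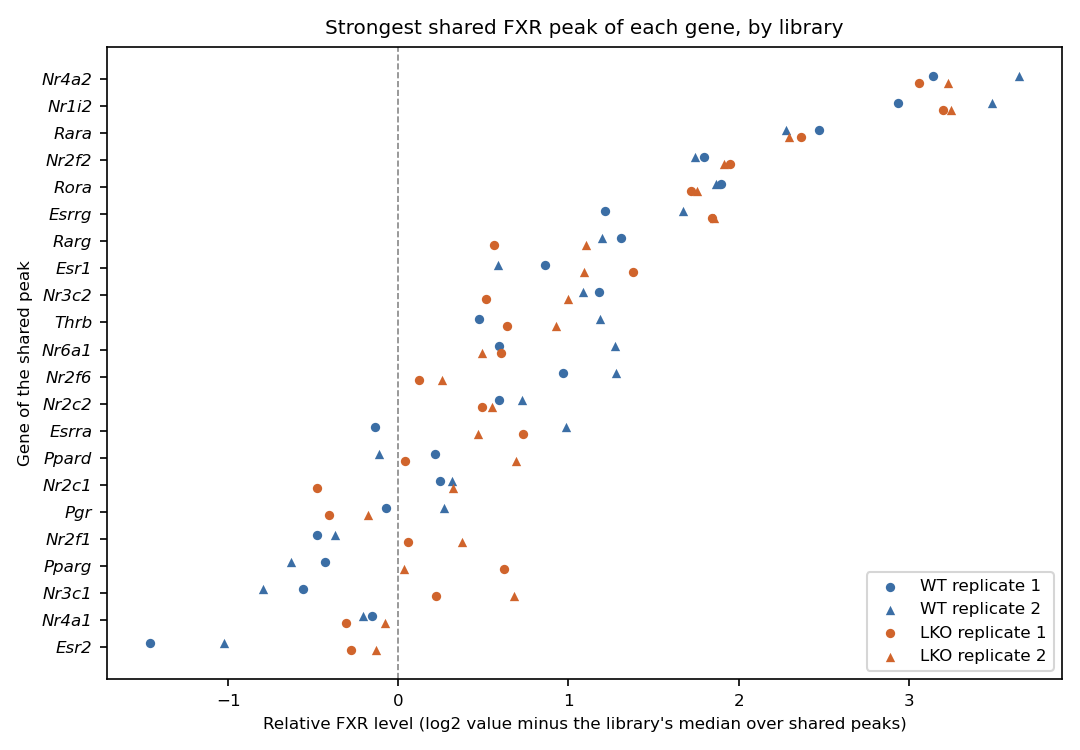
Relative FXR level (x axis, log2) at the strongest shared peak of each of the 22 genes that have one (y axis), with 1 symbol per library; blue, WT; orange, LKO; circles, replicate 1; triangles, replicate 2; dashed line, median shared peak. Nr4a2, Nr1i2, Rara, Nr2f2 and Rora lie above 1.7 in all 4 libraries, and the libraries of the genotypes overlap at 9 genes.

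Among the sterol and xenobiotic sensors, binding was concentrated at Nr1i2, which encodes PXR, the receptor that induces drug-metabolizing enzymes. Its 6 WT peaks stood against 4 in LKO, and each of the latter overlapped a WT peak within its first intron. The peak 5775 bp downstream of the TSS (chr16:38288944-38289154) had relative levels of 2.94 and 3.49 in WT and 3.20 and 3.25 in LKO. At 14855 bp (chr16:38279864-38280074) the levels were 2.78 and 3.07 in WT and 2.84 and 2.79 in LKO. At both sites the libraries of the genotypes overlapped, with differences (LKO minus WT) of 0.01 ± 0.28 and -0.11 ± 0.15 (pooled SD of replicates, n = 2 a genotype). The weaker peaks between them, 8746 and 6790 bp from the TSS, were lower in both LKO libraries than in both WT libraries, with differences of -0.71 ± 0.28 and -0.47 ± 0.07. Input was above the 95th percentile of the WT list at 3 of these 4 sites, with log2 values of 1.92, 1.91 and 1.851 against 1.849, and in LKO at the strongest (2.57 against 2.49).

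Nr1i2 also had 2 WT-only peaks. That in intron 2, 38746 bp from the TSS, was among the 3 strongest WT-only peaks, with relative levels of 1.04 in replicate 1 and -0.28 in replicate 2 (131 and 11.5 estimated tags). Its sequence, printed above, holds an IR1 with 2 mismatches. The other lay at the promoter (-50 bp, chr16:38294769-38294979), at -0.66 and -0.97. Nr1i3 encodes CAR, the second xenobiotic receptor, and had WT-only peaks at -863 bp (chr1:171213002-171213212) and -32 bp (chr1:171213833-171214043), with levels of -0.97 and -0.77 at the first and -0.51 and -0.96 at the second. Nr1h3 (LXR-alpha) had weak peaks that did not overlap. That in WT lay at -38 bp (chr2:91195049-91195259), at -1.41 and -2.43, the latter from 2.58 estimated tags, and that in LKO at 883 bp (chr2:91194050-91194254), at -1.34 and -1.01.

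The PPARs had peaks in both lists. PPAR-delta, encoded by Ppard, drives fatty acid oxidation in many tissues, and its gene had 4 WT and 2 LKO peaks, both LKO ones shared. At 14981 bp the relative level was -0.35 and -0.49 in WT and 0.44 and 0.71 in LKO, without overlap, a difference of 0.99 ± 0.15. Its strongest WT peak, 472 bp from the TSS (chr17:28233121-28233331), had 0.21 and -0.11 in WT and 0.04 and 0.69 in LKO, so the libraries overlapped there. At Pparg, the adipogenic PPAR, 2 of 5 WT peaks were shared and differed in opposite directions: the distal one at -21782 bp read -0.43 and -0.63 in WT against 0.62 and 0.03 in LKO, and the promoter one at -920 bp (chr6:115421041-115421251) read -0.43 and -0.49 in WT against -1.26 and -1.08 in LKO. A further Pparg promoter peak at -303 bp (chr6:115421658-115421868) was WT-only, at -1.66 and -0.31.

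The retinoid and thyroid hormone receptors held 22 WT and 11 LKO peaks, with 7 pairs. Rara, the retinoic acid receptor alpha gene, had 5 of the pairs, and its intron 2 peak at chr11:98951637-98951847 was the fourth strongest of the 61, at 2.47 and 2.28 in WT and 2.37 and 2.30 in LKO (difference -0.04 ± 0.10). Its peak at 2051 bp was also strong in both genotypes, at 1.56 and 1.82 in WT and 1.59 and 1.30 in LKO. In the annotated 5′ untranslated region, 186 bp from the TSS (chr11:98964953-98965163), the levels were 0.21 and 0.40 in WT and -0.28 and -0.09 in LKO, with no overlap. Rarg had its shared peak at -1137 bp, at 1.31 and 1.195 in WT and 0.56 and 1.10 in LKO, with a WT input of 2.67 that was above the 95th percentile. Its promoter peak at -251 bp, with the 1-mismatch IR1 printed above, was WT-only, at -0.48 and -0.46. Thrb, the thyroid hormone receptor beta gene and the main such receptor of liver, had 8 WT peaks of which 1 was shared, in the intron at -81738 bp from a TSS, at 0.47 and 1.19 in WT and 0.64 and 0.93 in LKO. Rarb had 3 WT-only peaks, including its promoter at -96 bp (chr14:16575467-16575677, -0.43 and -1.08), and Thra 1 at 13207 bp (-1.47 and -2.43).

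Rora, whose product ROR-alpha activates clock and lipid genes through sites that the REV-ERBs repress, held 9 WT and 6 LKO peaks, and every LKO peak was shared. All but 1 of the 6 lay between 1470 and 30121 bp downstream of an internal TSS. The strongest, at 1470 bp (chr9:69291206-69291416), had 1.89 and 1.87 in WT and 1.72 and 1.76 in LKO, a small difference of -0.14 ± 0.02 between libraries that did not overlap. Next to each other along the intron, the peaks then differed in direction. At 9817 bp (chr9:69299553-69299763) the level was -1.63 and -1.73 in WT and -0.30 and -0.84 in LKO, higher by 1.11 ± 0.28 after centering and by 0.78 before it, but at -0.04 on the library-total scale. At 17118 bp (chr9:69306854-69307064) it was -0.16 and 0.24 in WT and -0.75 and -1.60 in LKO, a difference of -1.21 ± 0.47, which was -0.78 without LKO replicate 2. The peaks at 23655 bp and 30121 bp were lower (-0.27 ± 0.03) and higher (0.18 ± 0.09) in LKO after centering. Before centering both were lower, at -0.60 and -0.15. The promoter peak at -32 bp (chr9:69289704-69289914) was WT-only at -0.41 and -0.57.

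**Figure D3:**
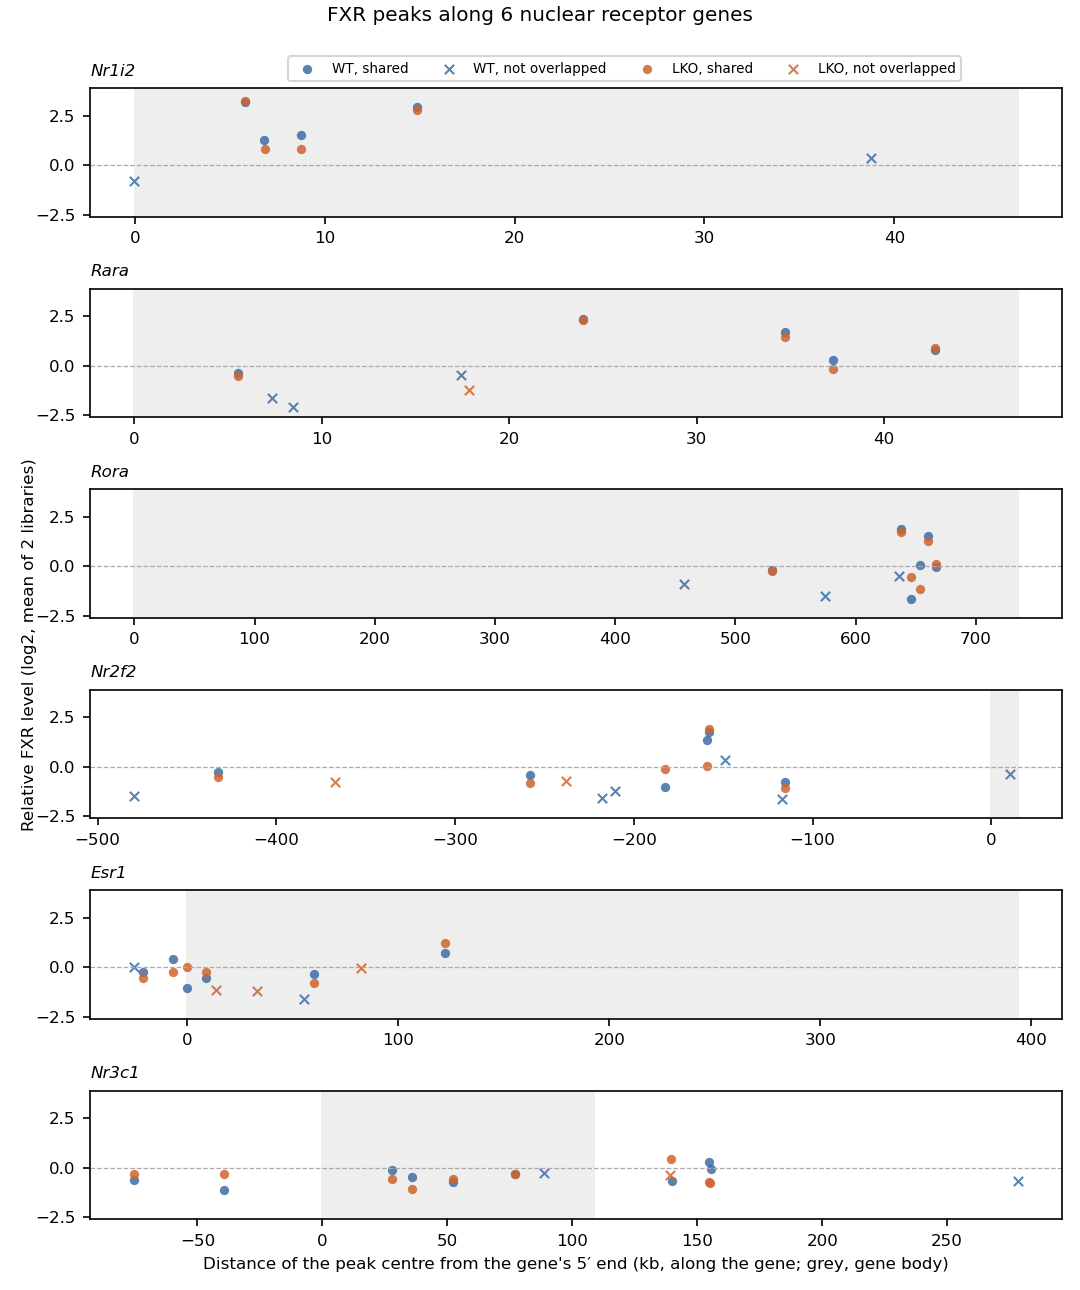
FXR peaks along Nr1i2, Rara, Rora, Nr2f2, Esr1 and Nr3c1: distance of the peak centre from the annotated 5′ end of the gene (x axis, kb, grey band the gene body) against relative level (y axis, log2, mean of 2 libraries); blue, WT; orange, LKO; circles, shared; crosses, not overlapped by the other list. Peaks of Rara and Rora lie in the gene bodies, and those of Nr2f2 reach 479.5 kb upstream.

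The COUP-TF and testicular receptor genes together had 24 WT and 16 LKO peaks. Nr2f2 (COUP-TFII), an orphan receptor that often represses the targets of other receptors, had 12 WT peaks and 8 LKO peaks, 6 of them shared, and all but 1 of its WT peaks lay in the intergenic stretch upstream of the gene. The strongest pair, at -158208 bp (chr7:70524849-70525059), was at 1.80 and 1.74 in WT and 1.95 and 1.91 in LKO, higher by 0.16 ± 0.03 without overlap. Before centering its difference was -0.17, lower in LKO. Its neighbour at chr7:70525519-70525729, at -158878 bp, showed the largest negative difference among all 61 pairs, with 1.47 and 1.24 in WT and -0.38 and 0.41 in LKO, that is -1.34 ± 0.41, and its WT input of 2.31 was above the 95th percentile. Another, at -182649 bp and with the 1-mismatch IR1 printed above, had -0.41 and -1.62 in WT and 0.11 and -0.39 in LKO, higher by 0.88 ± 0.66.

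Nr2f6 (EAR2), a COUP-TF relative, was bound at its promoter at -873 bp (chr8:71382720-71382930), with 0.97 and 1.28 in WT and 0.12 and 0.26 in LKO, a difference of -0.93 ± 0.17. Nr2f1 (COUP-TFI) had 1 shared peak at -21547 bp, at -0.48 and -0.37 in WT and 0.06 and 0.37 in LKO. The closely related testicular receptor genes Nr2c1 and Nr2c2 were bound near their starts, at 228 bp (chr10:94148054-94148264, 0.25 and 0.32 in WT, -0.48 and 0.32 in LKO) and -171 bp (chr6:92092157-92092367, 0.59 and 0.73 in WT, 0.49 and 0.55 in LKO). Nr2c1 had a WT-only peak at 857 bp too (chr10:94148683-94148893), at -1.10 and -0.78. WT input was high at both shared peaks, 3.17 and 2.94. At Nr2c2 an LKO-only promoter peak at 64 bp (chr6:92091380-92091584) was the strongest LKO-only peak, at 1.44 and 2.01, and its input value was 4.77 against a 95th percentile of 2.49. Its ChIP value exceeded its input by 1.89 on the log2 scale, where the median LKO peak exceeded input by 4.38. The part of input in that call was not tested.

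All 8 steroid and estrogen-related receptor genes had peaks in both lists, with 39 WT peaks, 35 LKO peaks and 23 pairs. Nr3c1 encodes the glucocorticoid receptor, which raises gluconeogenic genes on fasting, and had 11 WT and 10 LKO peaks, 9 shared, in its introns and in flanking sequence on both sides. None was strong: its highest WT and LKO relative means were 0.28 and 0.45. Its peak at 107562 bp was at -0.56 and -0.79 in WT and 0.22 and 0.68 in LKO, higher by 1.13 ± 0.26 after centering, but at -0.02 on the library-total scale. Farther on, at 122575 bp, the level was 0.11 and 0.44 in WT and -0.62 and -0.85 in LKO, a difference of -1.01 ± 0.20, and the neighbouring peak at 123141 bp differed by -0.69 ± 0.13. Thus 3 Nr3c1 pairs were higher, 4 lower and 2 overlapped.

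Nr3c2, the mineralocorticoid receptor gene, had 6 peaks in each list and 4 pairs. The promoter peak at -214 bp (chr8:76902189-76902399) had 1.18 and 1.08 in WT and 0.51 and 0.99 in LKO. The intron peak at 106962 bp (chr8:77009365-77009575) showed the largest positive difference of the 61 pairs, with -0.95 and -1.67 in WT and 0.02 and -0.17 in LKO, that is 1.23 ± 0.37, or 0.09 on the library-total scale. Esr1 (estrogen receptor alpha, the predominant estrogen receptor of liver) was 1 of the 3 genes with more LKO than WT peaks, 9 against 8, with 6 pairs. Its strongest pair, at 23981 bp from a TSS, had 0.86 and 0.58 in WT and 1.38 and 1.09 in LKO, higher by 0.51 ± 0.20. At the Esr1 promoter, 94 bp from the TSS (chr10:4611978-4612188), the WT libraries read -0.25 and -1.86 and the LKO libraries 0.39 and -0.37, so a mean difference of 1.07 ± 0.89 came with libraries that overlapped. An LKO-only Esr1 intron peak at -15724 bp from a TSS was among the 3 strongest LKO-only peaks, at -0.27 and 0.19.

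Esrrg, which encodes estrogen-related receptor gamma, a regulator of oxidative metabolism, had 9 WT peaks but 3 LKO peaks and a single pair. That pair, in the intron at chr1:187964551-187964761 and holding the IR1 with 1 mismatch, was strong in both genotypes, at 1.22 and 1.67 in WT and 1.84 and 1.86 in LKO (difference 0.40 ± 0.23), with an LKO input of 3.02 that was above the 95th percentile. The strongest WT-only peak of all the genes was also Esrrg's, at -104274 bp (chr1:187504627-187504837), at 0.64 and 1.06. The LKO-only Esrrg intron peak at 104506 bp (chr1:187756645-187756849) was at -0.23 and 0.12, and its WT-only promoter peak at -412 bp (chr1:187608489-187608699) at -1.69 and -1.73. Esrra was bound at its promoter at -258 bp (chr19:6921961-6922171) in both genotypes (-0.14 and 0.99 in WT, 0.73 and 0.47 in LKO), where the WT libraries spanned the LKO ones. Esr2 had 1 pair at 48265 bp, at -1.46 and -1.02 in WT and -0.28 and -0.13 in LKO, and Pgr 1 at 149309 bp, at -0.07 and 0.27 in WT and -0.41 and -0.18 in LKO. Pgr, the progesterone receptor gene, had 3 further LKO-only peaks, 1 of them in its first exon at 1333 bp. Esrrb had 1 peak in each list, far apart.

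The last group held the strongest pair of all. Nr4a2, an immediate-early orphan receptor gene, had its only peak at the promoter, -223 bp from the TSS (chr2:57124121-57124331), with relative levels of 3.14 and 3.65 in WT and 3.06 and 3.23 in LKO. Input was also extreme there, with log2 values of 4.71 in WT and 5.70 in LKO, the 99.95th and 99.98th percentiles of the lists. The ChIP value exceeded input by 3.95 in WT and 2.39 in LKO, against medians of 4.49 and 4.38 over all peaks, and the part of input in these levels was not tested. Its 564 estimated tags in WT replicate 1 also exceed the 422 that 1 tag per position and strand would allow in a peak of 211 bp, as did the 2 strongest Nr1i2 peaks, so the estimated tag numbers at the top of the range are not exact. Nr4a1 had 1 pair at -20660 bp, at -0.16 and -0.21 in WT and -0.31 and -0.08 in LKO. Nr6a1, the germ cell nuclear factor gene, had its strongest pair at 1175 bp, at 0.59 and 1.27 in WT and 0.60 and 0.49 in LKO. Its other pair lay at an internal start, -34 bp (chr2:38784444-38784654), at -0.57 and 0.38 in WT and -0.38 and -0.91 in LKO, and a WT-only peak at -348 bp (chr2:38926704-38926914) was at -0.87 and -0.39. In this group the libraries overlapped at all 4 pairs.

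**Figure D4:**
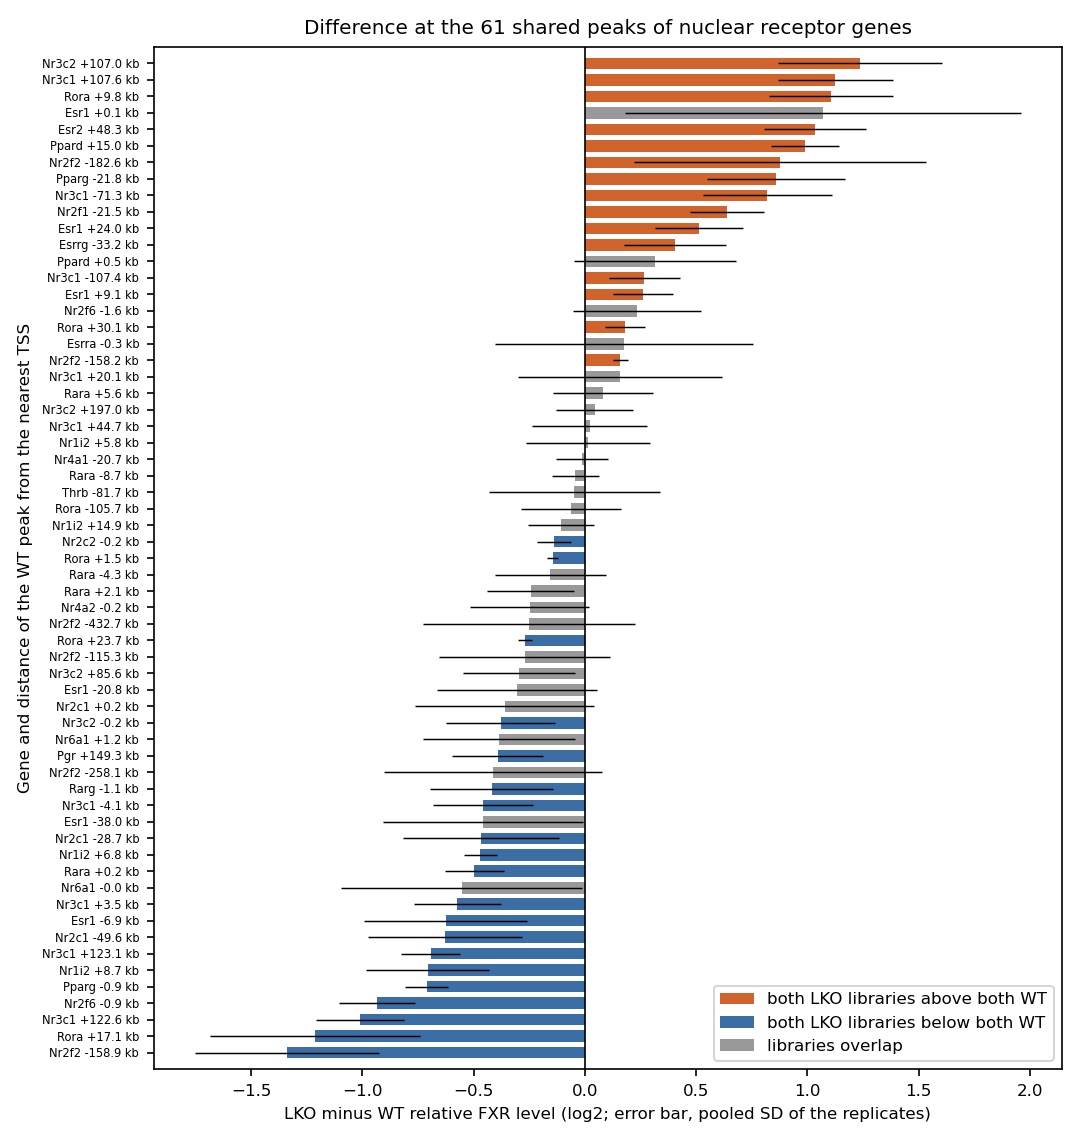
LKO minus WT relative FXR level (x axis, log2) at the 61 shared peaks, each named by its gene and the distance of the WT peak from the nearest TSS (y axis); bars, difference of the means of 2 libraries; error bars, pooled SD of replicates; orange and blue, both LKO libraries above or below both WT libraries; grey, libraries overlap. Differences run from -1.34 to 1.23.

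Over the 61 pairs, both LKO libraries were above both WT libraries at 15 (24.6%, against 29.8% of all shared peaks) and below them at 20 (32.8%, against 25.2%), and the libraries overlapped at 26. The median difference was -0.14 at these genes (-0.27 without WT replicate 1 and -0.07 without WT replicate 2) and 0.03 over all shared peaks, and the median pooled SD was 0.25. The split depends on the centering. Without centering 5 pairs at these genes were higher and 27 lower (all shared peaks, 25.8% of calls higher), and on the library-total scale 0 were higher and 51 lower (1.78% higher), against 42.9% and 54.2% of calls higher with centering. Without WT replicate 1, leaving the shallow library alone in WT, 20 were higher and 34 lower. Over all 9918 shared peaks 4164 were then higher and 3826 lower. Leaving out a library loosens the call, and with each other library left out 24 to 28 were lower. At 51 pairs without a high input in either genotype, 14 were higher and 15 lower. The same split over all shared peaks is not given here, so these counts have no background beside them.

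**Figure D5:**
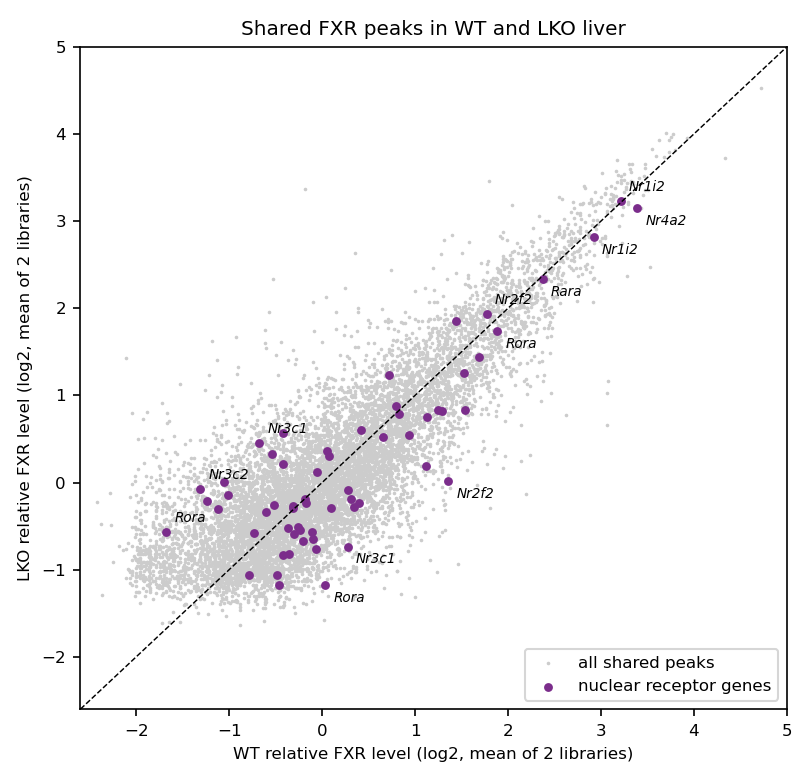
Mean relative FXR level in WT (x axis, log2) against LKO (y axis, log2) at all 9918 shared peaks (grey) and the 61 of the nuclear receptor genes (purple); dashed line, equal levels; labels, the 6 strongest pairs and those with the 3 largest differences in each direction. The 6 strongest lie near the line, with differences from -0.25 to 0.16.

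Within some genes the direction was mixed. Of the 22 genes with a pair, 6 had pairs in both directions, 4 had higher pairs and no lower one, 7 had lower pairs and no higher one, and 5 had only pairs whose libraries overlapped. The 22 include genes with a single pair, which cannot be mixed, and the same split was not made over all genes. Near start sites, of the 11 pairs within 1 kb of a TSS, 5 were lower in LKO (Nr2f6, Pparg, Rara, Nr3c2 and Nr2c2), 0 were higher and 6 overlapped, against 21.9% lower and 25.6% higher over all 1712 such pairs. Beyond 1 kb, 15 of 50 were higher and 15 lower. Over all shared peaks at any distance 29.8% were higher and 25.2% lower, and the share beyond 1 kb alone is not given here. In the WT list 22 peaks of 18 genes lay within 1 kb of a TSS and 11 of them were shared; in the LKO list there were 13 peaks of 12 genes, 11 of them shared.

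Unshared peaks at these genes were weaker than shared ones in their own list, which is not particular to these genes. The centering sets shared peaks near 0, and the median over all peaks was -0.68 in WT and -0.20 in LKO. In WT the relative mean had a median of -0.05 at the 61 shared peaks and -1.19 at the 57 WT-only peaks, of which 4 were above 0. In LKO the medians were -0.08 and -0.77, and 1 of 20 LKO-only peaks, that at Nr2c2, was above 0. Besides those of Esrrg and Nr1i2, the next strongest WT-only peak lay at -148956 bp from Nr2f2 (chr7:70515597-70515807), at 0.50 and 0.18. A peak absent from a list is one that did not pass the caller's limits there, and its level in that genotype was not analysed here.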

How the data were processed

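FXR ChIP-seq and input libraries of 6 mouse liver samples were used as 2 deposited peak tables, 1 per genotype. Per the labels and the study's methods, the authors aligned unique reads to mm10 with Bowtie 1.2 and made tag directories with HOMER 4.10, keeping 1 tag at each position. As the file headers record, the authors used HOMER to call factor-style peaks on pooled replicates against input, with DESeq2 limits of 0.05 on the adjusted p-value and 1 on the log2 fold. The deposited values used here are log2 tags of each library, taken to be regularized by the authors' DESeq2 run within a table. Columns holding the authors' own comparison (ChIP against input fold changes and p-values) were not used.

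The values were analysed with Python 3.11.15, pandas 2.3.3, numpy 2.4.6 and scipy 1.17.1. Samples were grouped by title. Peaks overlapping by at least 1 bp were paired. Motifs were searched in GRCm38.p6, the assembly of mm10, and all peaks lay within its chromosomes; overlap and motif searches were tested on simulated data. Tags were estimated from the log2 value and library totals, and are approximate throughout because the values are taken to be regularized. Intervals are Wilson 95% intervals for counting error only. No genotype test was run. Genes were described by a rule: all 37 by counts, the strongest pair of each, the 6 strongest pairs, the 3 largest differences in each direction, the 3 strongest unshared peaks per list, peaks within 1 kb of a TSS and those with a 1-mismatch IR1. The genes, lists and rule were chosen with earlier results of these data known. Sequences are from RefSeq GRCm38.p6; Nr3c1 peaks are given without coordinates.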

Additional observations from a re-analysis of the deposited data

How the results depend on the processing

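Of 118 recomputed values, 97 stayed within their limits, 19 moved and 2 turned direction. Keeping peaks at or above the median strength of their list left 69 WT and 37 LKO peaks, fewer by construction. Of these, 44.9% of the WT and 83.8% of the LKO ones were overlapped, from 51.7% and 75.3%. The same shares over all peaks are not given here. Cutting both lists to 1 length overlapped 68.8% of WT peaks. Allowing 1 mismatch left an IR1 in 2.54% of WT and 2.47% of LKO peaks. The median difference of the 61 pairs was -0.47 as deposited and -1.29 on the library-total scale, and ran from -0.27 without WT replicate 1 to -0.07 without WT replicate 2 with 1 library left out. As deposited 5 pairs were higher; on the library-total scale 0 were higher and 51 lower. With 1 library left out, 19 to 22 were higher and 24 to 34 lower. Over all shared peaks the same counts were 3989 to 4164 and 3497 to 3826, against 2960 and 2501 with every library. On the library-total scale the Nr3c1 pair at 107562 bp and the Rora pair at 9817 bp turned to -0.02005 and -0.03949, from the scaling alone. Single pairs were recomputed only for the 3 largest differences in each direction. Other pairs that turn on that scale are therefore not among the 2. No paired analysis was possible because no label ties libraries of the same number together and the differences come from no test. Depth limits mainly the WT list, through the 2883717 tags of WT replicate 2.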
